A study of Drosophila melanogaster with 837 samples.

Results

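The genes described here are 6 genes of muscle excitation and calcium handling in Drosophila melanogaster, of 8862 genes in the deposited count table: SERCA, RyR, Ca-alpha1D, Ca-beta, slo and Sh. They were chosen by name, and all 6 have a row in the table. They were followed across single cells sorted from dissociated embryos of 19 to 20 h, pooled over embryos, of the fly stock Mhc-TAU-GFP, whose GFP label is tied to the gene of muscle myosin heavy chain (Mhc). Every cell belonged to the same labelled group (positive for GFP and the DNA dye DRAQ5, negative for DAPI, which enters damaged cells), no other genotype or treatment was included, and cDNA was amplified at full length with Smart-seq2, to which primers for the Hox genes were added. All deposited cells but 28 had at least 500 genes with 10 or more reads and were used. Of these, 700 cells had fewer than 10 reads of Mhc and the remainder, 56 in the muscle-like cluster described below and 53 outside it, had at least 10 (Mhc cells).

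In an insect muscle, the motor neuron depolarises the membrane through glutamate receptors, voltage-gated calcium channels open, and calcium enters the cell. Calcium released from the sarcoplasmic reticulum adds to this signal and starts contraction, potassium channels bring the membrane back to rest, and a pump returns the calcium to the store. Among the genes described here, Ca-alpha1D encodes the pore of the L-type voltage-gated calcium channel and Ca-beta an auxiliary subunit of such channels. RyR encodes the ryanodine receptor, the release channel of the store, and SERCA the pump that refills it. Sh (Shaker) encodes a fast-inactivating voltage-gated potassium channel and slo (slowpoke) a potassium channel opened by calcium and voltage, and both channels work in muscle and in neurons.

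The labels name neither animals nor cultures, so all cells together are 1 sample, and no test between groups was possible. Ranges after shares are exact Clopper-Pearson 95% intervals that cover counting error only, the share that a count of 0 allows is given as 3 counts of the total, and the SD over the 15 plates is a technical spread. Reads per cell that passed ranged from 98988 to 6870936, with a median of 594210 in Mhc cells and 793506 in the other cells, and ribosomal RNA took 42.8% of all reads. Plate 17 held 32 of the Mhc cells, and each other plate held 1 to 9. The cells were divided into 8 clusters without the 6 genes or the other excitation and calcium genes named below. A cluster of 58 cells, 56 of them Mhc cells, passed 20 of 20 somatic muscle markers and is called muscle-like; it also passed the 5 measured heart markers (Hand, prc, mid, H15, tup). A cluster of 13 cells passed 10 of 11 measured neuron markers (neuron-like) and one of 25 cells passed 4 of 5 midgut markers (midgut-like). The remaining clusters were hemocyte-like (24.4% of the cells), fat body-like (23.1%) or kept unnamed (19.7%, 16.7% and 4.33%), so that most sorted cells were not muscle-like, against the label of the sort.

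SERCA was found in most cells, and the other 5 genes in few. At least 10 reads of SERCA were present in 60.2% of the cells (56.7 to 63.6). RyR had 10 reads in 57 cells (7.05%, 5.38 to 9.03), Ca-alpha1D in 54 (6.67%, 5.05 to 8.62), Ca-beta in 52 (6.43%, 4.84 to 8.34), Sh in 45 (5.56%, 4.09 to 7.37) and slo in 44 (5.44%, 3.98 to 7.23). The intervals of these 5 genes overlap. Over the plates the share was 59.96% ± 6.12 (SD, n = 15) for SERCA and lay between 5.43% ± 3.55 for slo and 7.07% ± 3.07 for RyR. Every gene was found on all 15 plates, except slo, which was found on 14.

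Mhc cells carried higher mean levels of all 6 genes. Each had a log2 ratio of mean CPM (CPM, the reads of a gene scaled to the depth of its cell; 1 CPM added to each mean) of at least 1 between Mhc cells and the other cells; over all 8828 genes with 10 reads in at least 5 cells, 19.3% reached that limit and 10.6% lay at or below -1. The median log2 ratio was 3.53 over the 6 genes and 0.08 over all genes tested. By CPM over all reads the order was RyR, Ca-beta, Ca-alpha1D, SERCA, Sh and slo. In both further scalings Sh and slo stayed below the other 4, with Sh above slo, and Ca-beta stayed above SERCA and Ca-alpha1D. The place of RyR, and the order of Ca-alpha1D and SERCA, did not hold as computed. With ribosomal RNA left out of the library size the log2 ratio was 4.59 for Ca-beta, 4.54 for RyR, 3.33 for SERCA and 3.02 for Ca-alpha1D. By TPM, with 1 TPM added to each mean, it was 3.69 for Ca-beta, 3.59 for SERCA, 3.06 for Ca-alpha1D and 3.04 for RyR. That constant is large beside the RyR mean in the other cells, 0.227 TPM (9.07 TPM in Mhc cells). There the means were 0.951 TPM for Ca-beta, 1.01 TPM for Ca-alpha1D and 33.1 TPM for SERCA. The TPM order of these genes therefore cannot be read apart from the constant. With Mhc cells defined by 1 read, slo stood at 0.99, just under the limit. The ratio compares cells of a single sample, so it has no replicate check beyond the plates.

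RyR had the largest ratio by CPM over all reads. It had 10 reads in 43 Mhc cells (39.4%, 30.2 to 49.3) and in 14 of 700 other cells (2%, 1.10 to 3.33), its mean level was 118.3 CPM against 2.60 CPM, and the log2 ratio was 5.05. Within plates the log2 ratio was 5.84 ± 2.44 (SD, n = 14 plates with at least 2 Mhc cells), and it was positive on 13 of them. Without plate 17 the log2 ratio of RyR rose to 6.25, the largest move of it by any plate. That plate held 30 of the 53 Mhc cells outside the muscle-like cluster, and also 2 cells without 10 reads of Mhc at 760.1 and 295.96 CPM of RyR.

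The channel pore and its subunit followed. Ca-alpha1D had 10 reads in 37 Mhc cells (33.9%, 25.1 to 43.6) and in 17 other cells (2.43%, 1.42 to 3.86), with means of 87.3 and 5.998 CPM and a log2 ratio of 3.66. Ca-beta likewise had 10 reads in 37 Mhc cells and in 15 other cells (2.14%, 1.20 to 3.51), with means of 78.1 and 3.12 CPM and a log2 ratio of 4.26. Within plates the log2 ratios were 3.92 ± 2.52 and 4.37 ± 2.89 (SD, n = 14 plates), each positive on 13 plates. The difference in ratio between the pore and its subunit was smaller than the SD over plates of either ratio. The spread of the difference itself within plates was not computed.

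SERCA differed in level more than in presence. It had 10 reads in 81 Mhc cells (74.3%, 65.1 to 82.2) and in 58% of the other cells (54.2 to 61.7), while the mean was 1219 CPM against 114.8 CPM, a log2 ratio of 3.40 (within plates 3.61 ± 1.45, SD, n = 14, positive on 13). The potassium channels were the least separated. Sh had 10 reads in 21 Mhc cells (19.3%, 12.3 to 27.9) and slo in 20 (18.3%, 11.6 to 26.9), and each had 10 reads in 24 of the other cells (3.43%, 2.21 to 5.06). Their means were 44.8 against 9.23 CPM for Sh and 33.3 against 10.4 CPM for slo, log2 ratios of 2.16 and 1.59. Within plates these ratios were 1.72 ± 3.77 and 0.25 ± 2.17 (SD, n = 14 plates), positive on 10 and on 8 plates, so that neither exceeded its spread over plates.

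**Figure D1:**
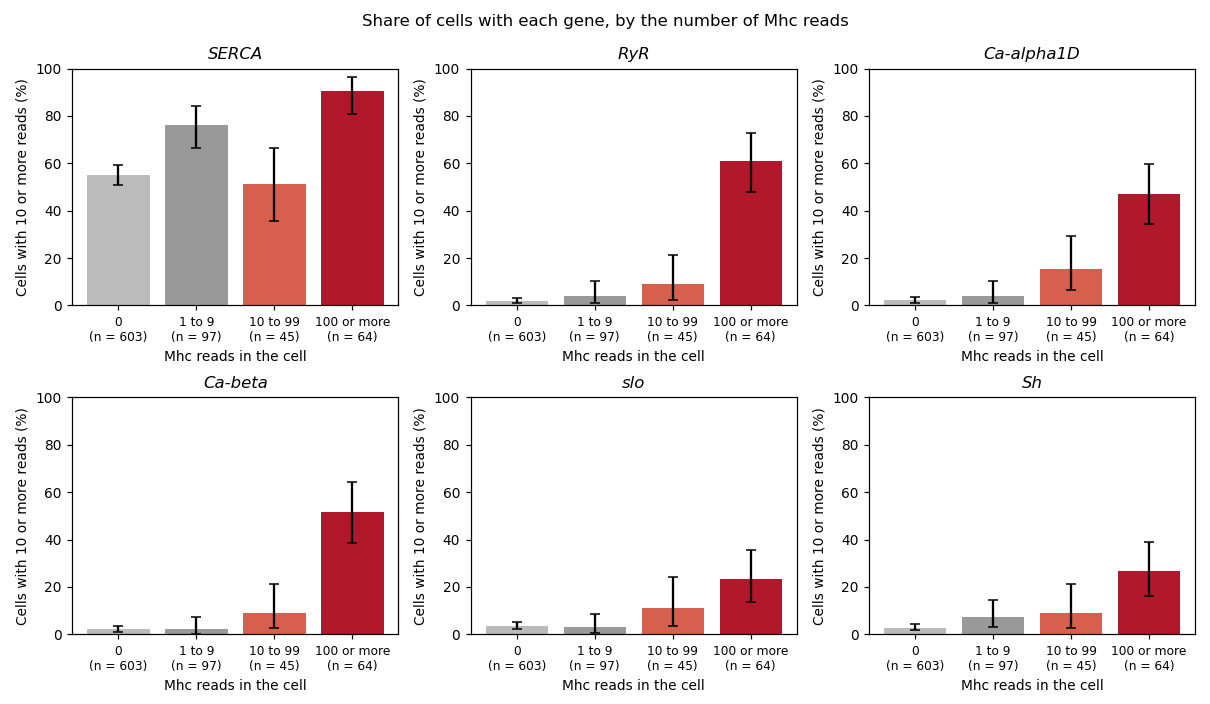
Share of cells with 10 or more reads of each gene (y axis, %), by the number of Mhc reads in the cell (x axis; the number of cells is given under each bar); bars are shares and error bars exact 95% intervals. In cells with 100 or more Mhc reads the share is 90.6% for SERCA and 60.9% for RyR but 23.4% for slo; in cells without Mhc reads it is 55.1% for SERCA and at most 3.48% for the other 5 genes.

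The genes were found most often where Mhc reads were many. In the 64 cells with 100 or more Mhc reads, SERCA was present in 58, RyR in 39, Ca-beta in 33, Ca-alpha1D in 30, Sh in 17 and slo in 15. In the 45 cells with 10 to 99 Mhc reads, the counts were 23, 4, 4, 7, 4 and 5 in the same order. Of these 45 cells only 3 were muscle-like, compared with 53 of the 64. The mean of SERCA was 204.7 CPM in cells with 10 to 99 Mhc reads, 229.9 CPM with 1 to 9, and 96.2 CPM with none, so its high level was seen at 100 Mhc reads and more (1931 CPM). Between the cells without Mhc reads and the 97 cells with 1 to 9, the intervals of RyR, Ca-alpha1D, Ca-beta, slo and Sh overlapped. Those of SERCA did not: its share was 55.1% (50.99 to 59.1) without Mhc reads and 76.3% (66.6 to 84.3) with 1 to 9, and then 51.1% (35.8 to 66.3) with 10 to 99.

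In the muscle-like cluster, SERCA was nearly always present. It had 10 reads in 56 of 58 cells (96.6%, 88.1 to 99.6), and its level ran from 0 through a median of 1491 to a maximum of 11474 CPM, with a mean of 2181 CPM. In all other cells the mean was 115.4 CPM. RyR was present in 38 of 58 (65.5%, 51.9 to 77.5), with a median of 116.2 and a maximum of 1095 CPM. These 58 cells held 91.5% of all RyR reads, the highest such value of the 6 genes, although they are 7.17% of the cells.

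The calcium channel genes were found in about as many muscle-like cells as not. Ca-beta had 10 reads in 33 of 58 (56.9%, 43.2 to 69.8), median 36.2 and maximum 815.6 CPM, and these cells held 74.8% of its reads. Ca-alpha1D had 10 reads in 29 of 58 (50%, 36.6 to 63.4), median 16.6 and maximum 463.8 CPM, with 55.8% of its reads. Sh had 10 reads in 17 of 58 (29.3%, 18.1 to 42.7) and slo in 12 of 58 (20.7%, 11.2 to 33.4), both with a median of 0 CPM, and the cluster held 36.1% of the Sh reads and 12.2% of the slo reads. A single muscle-like cell held 49.7% of the slo reads of the cluster.

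**Figure D2:**
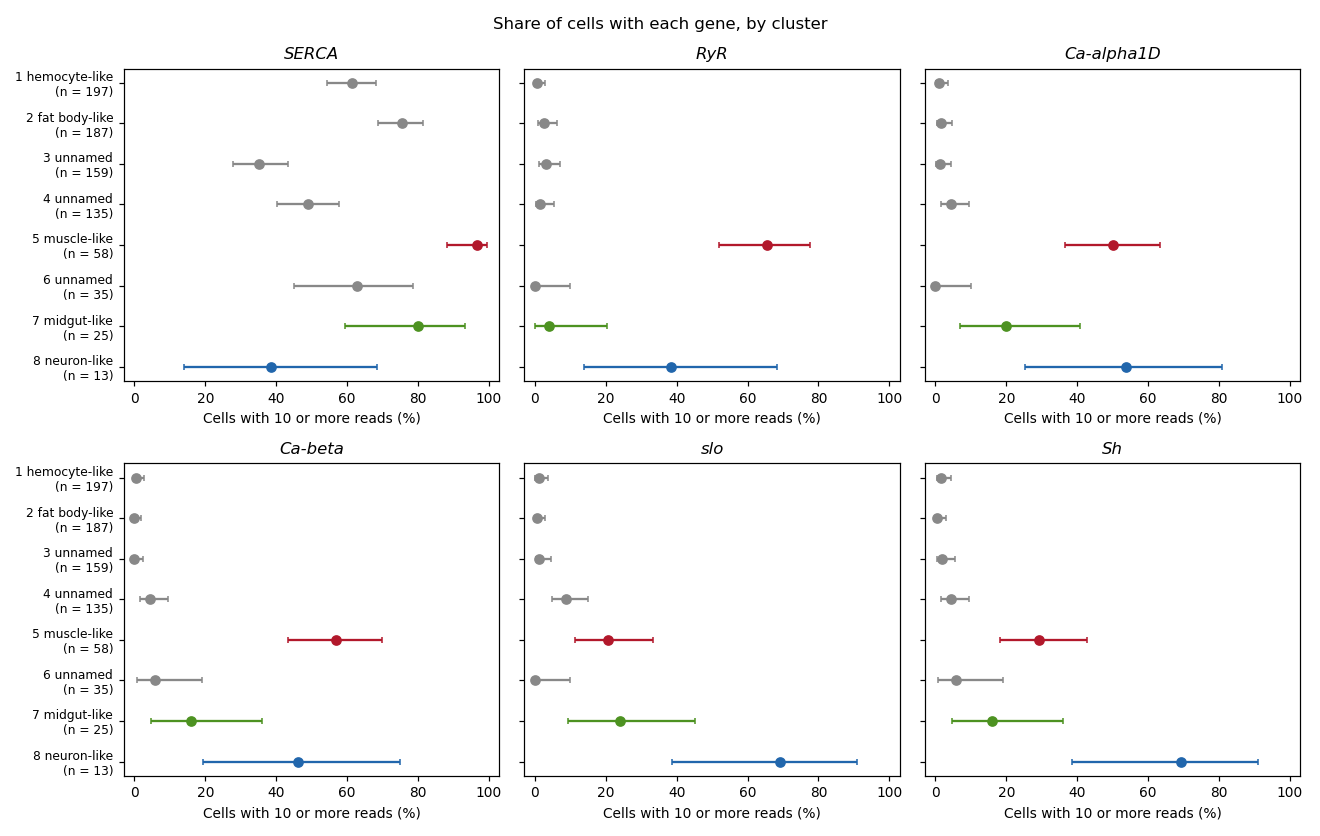
Share of cells with 10 or more reads of each gene (x axis, %) in the 8 clusters (y axis, number of cells in brackets); points are shares and bars exact 95% intervals. SERCA, RyR and Ca-beta have their highest share in the muscle-like cluster, and Ca-alpha1D, slo and Sh in the neuron-like cluster, where the intervals of 13 cells are wide.

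Of the 6 genes, 3 (SERCA, RyR and Ca-beta) had their highest share of cells in the muscle-like cluster; among 7528 genes with 10 reads in at least 20 cells, 7.31% did. The other 3 peaked in the neuron-like cluster. There slo and Sh each had 10 reads in 9 of 13 cells (69.2%, 38.6 to 90.9), and the lower bound for slo lies above the muscle-like upper bound of 33.4%, while the interval of Sh overlaps that of the muscle-like cells (up to 42.7%). Ca-alpha1D had 10 reads in 7 of 13 neuron-like cells (53.8%, 25.1 to 80.8), not distinguishable from the muscle-like share. The remaining genes were present in 6 (Ca-beta), 5 (RyR) and 5 (SERCA) of the 13 cells. The neuron-like mean was 533.7 CPM for Sh (median 56.7, maximum 1748 CPM), 294.9 CPM for slo (median 66.9, maximum 929.6 CPM) and 408.9 CPM for Ca-alpha1D (median 25.2, maximum 3235 CPM). A single cell held 49.4% of the Ca-alpha1D reads of that cluster. In the neuron-like cells SERCA had a median of 0 and a maximum of 201.7 CPM, so its highest value lay below the muscle-like median of 1491 CPM.

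Of the 13 neuron-like cells, 6 also had 10 reads of Mhc, and in those 6 RyR was present in 4 and SERCA in 3. Cells taken up together in a well and a cell with transcripts of both types cannot be told apart here, since no doublet caller was run.

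The levels of neuron markers beside both potassium channels were as follows; their part in the results was not tested. The summed level of the 11 measured neuron markers in muscle-like cells with 10 reads of Sh ran from 26.9 through a median of 328.2 to 2022 CPM, and in those without from 35.8 through 319.9 to 2808 CPM. In the 17 muscle-like cells with Sh, 7 of the 11 neuron markers (nSyb, brp, ChAT, Gad1, Rdl, futsch and cpx) had 10 reads in none. In the 41 muscle-like cells without Sh, a larger group, this held for 3 (ChAT, Gad1 and Rdl). The muscle-like cluster as a whole passed 2 of the 11 neuron markers, elav and Syx1A. For slo the median was 173.1 CPM in the 12 cells with it and 340.9 CPM in the 46 without. The cells with the gene were more deeply read: the median depth was 816601 reads for muscle-like cells with Sh and 495210 without, and 807941 with slo against 443934 without. The part of depth in these calls was checked by thinning every cell to 256773 reads, which left Sh in 14 of 51 muscle-like cells (27.5%, 15.9 to 41.7) and slo in 5 of 51 (9.80%, 3.26 to 21.4). Before thinning the shares were 29.3% for Sh and 20.7% for slo. The thinned cells are drawn from the same cells, so their intervals are not a separate check on depth. Thinned neuron-like cells had slo and Sh each in 5 of 10 (50%, 18.7 to 81.3). These intervals overlap the muscle-like ones, for slo only from 18.7 to 21.4%. With 10 cells, overlap of intervals cannot decide whether the share of slo differed at equal depth.

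Outside these clusters the 5 rarer genes were scarce, except for 4 of them in midgut-like cells and for slo in 1 unnamed cluster. The midgut-like cells had slo in 6 of 25 (24%, 9.36 to 45.1), Ca-alpha1D in 5, Ca-beta in 4 and Sh in 4, but RyR in 1. The unnamed cells led by sna, esg, Sox100B and exex, genes of transcription factors, had slo in 12 (8.89%, 4.68 to 15.01) and held 41.2% of all its reads, the largest portion of any cluster. In the same cells Ca-alpha1D, Ca-beta and Sh were each present in 6, and RyR in 2. The mean of slo was 63.5 CPM in midgut-like cells and 29.7 CPM in these unnamed cells, both above the 18.8 CPM of muscle-like cells. Among hemocyte-like and among fat body-like cells, no gene but SERCA was present in more than 5. Ca-beta was found in 0 fat body-like cells, which allows a share of up to 1.60% by 3 counts (exact upper bound 1.95%), whereas SERCA was present in 75.4% of them (68.6 to 81.4) and in 61.4% of hemocyte-like cells (54.2 to 68.3). The lowest share of SERCA, 35.2% (27.8 to 43.2), was in the unnamed cells with a median of 76.4% ribosomal RNA reads.

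**Figure D3:**
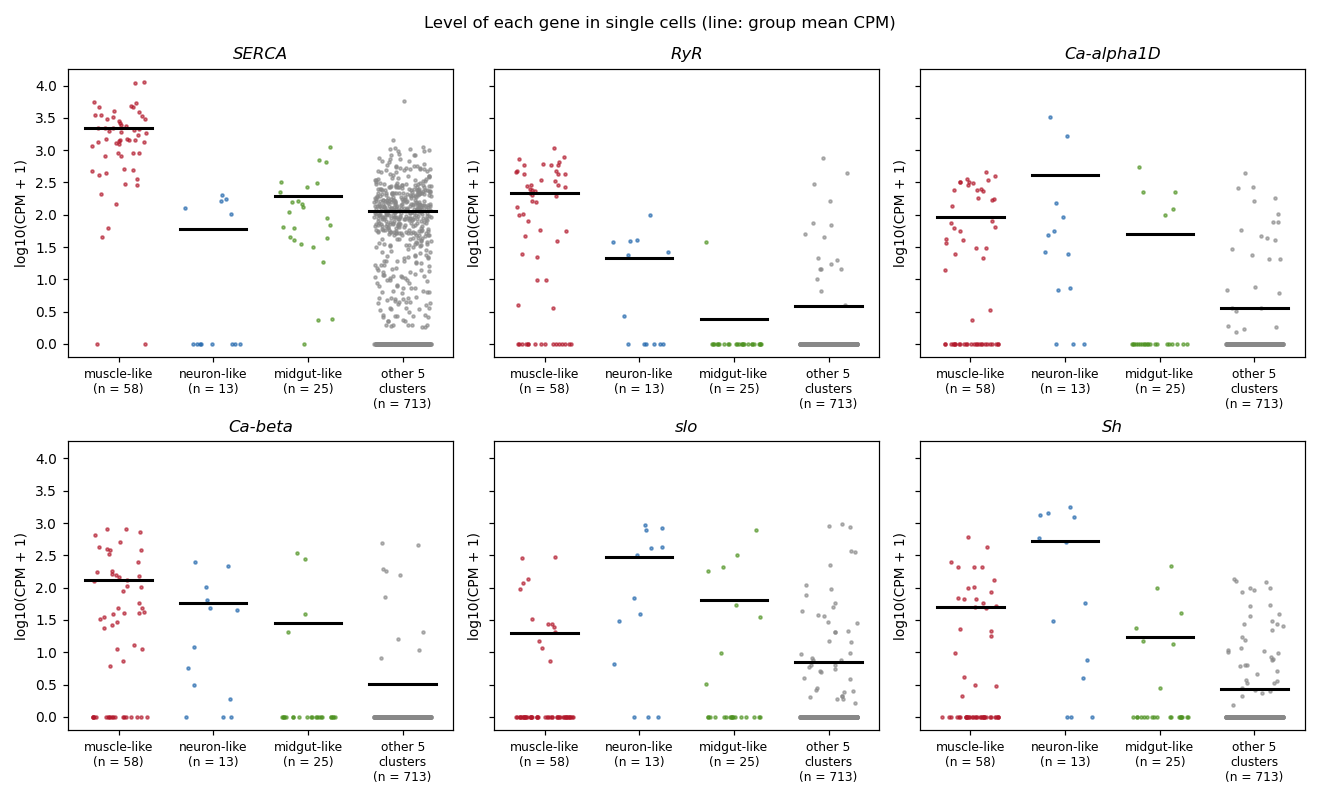
Level of each gene in single cells, as log10(CPM + 1) (y axis), in the muscle-like, neuron-like and midgut-like clusters and the other 5 clusters together (x axis); each point is a cell and the line is the mean CPM of the group. The SERCA points of the muscle-like cells lie around a median of 1491 CPM, above all 13 neuron-like cells in most cases, while for Sh the highest point is a neuron-like cell, at 1748 CPM. For slo the highest neuron-like cell, at 929.6 CPM, lies just below a cell of the other clusters at 948.6 CPM.

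Mhc cells outside the muscle-like cluster lacked the high SERCA level. RyR, Ca-alpha1D and slo were found in a larger share of them than of other cells. For RyR and slo this came largely through neuron-like cells, and for Ca-alpha1D largely through plate 17. In the 53 such cells, SERCA was present in 27 with a mean of 135.9 CPM, close to the 113.8 CPM of cells with neither property, and the log2 ratio of SERCA between Mhc cells and other cells was 0.25 when the muscle-like cluster was left out. RyR was present in 6 of the 53 (11.3%, 4.27 to 23.03), against 13 cells (1.86%, 0.995 to 3.16) without 10 reads of Mhc outside the cluster. Ca-alpha1D was present in 9 of the 53 (16.98%, 8.07 to 29.8) against 2.29% (1.32 to 3.70), and slo in 8 (15.1%, 6.75 to 27.6) against 3.44% (2.22 to 5.07), so that the intervals of RyR, Ca-alpha1D and slo did not overlap. Ca-beta was present in 4 and Sh in 5, with intervals that overlapped those of the cells without 10 reads of Mhc. Of the 53 cells, 6 were neuron-like, and RyR and slo were each present in 4 of these. In the other 47, RyR was present in 2 (4.26%, 0.52 to 14.5) and slo in 4 (8.51%, 2.37 to 20.4). Both intervals overlapped those of the cells without 10 reads of Mhc. Ca-alpha1D was present in 6 of the 47 (12.8%, 4.83 to 25.7), and its intervals did not overlap. These intervals cover counting error only and do not account for the plate. With the muscle-like cluster left out, the log2 ratio was 3.55 for Ca-alpha1D, 2.10 for slo, 2.06 for Ca-beta, 2.03 for Sh and 1.95 for RyR. These ratios include the 6 neuron-like Mhc cells, with means of 560.6 CPM for Ca-alpha1D (1 cell at 3235 CPM), 320.97 for Sh and 255.4 for slo. In the other 47 cells the means of Ca-alpha1D, slo, Ca-beta, RyR and Sh were 18.96, 21.4, 16.8, 9.36 and 4.71 CPM. The cells without 10 reads of Mhc outside the cluster had 5.94, 10.4, 3.11, 2.38 and 9.16 CPM. Sh was thus not higher in those 47 cells. The 53 cells had a median of 21 Mhc reads, compared with 1283 in the muscle-like Mhc cells, and 30 of the 53 came from plate 17. On that plate, Ca-alpha1D was present in 7 of these 30 cells and RyR in 3. Plate 17 thus held 7 of the 9 cells with Ca-alpha1D among the 53, so its larger share was not shown for the other plates.

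Compared per length (TPM, scaled for transcript length and depth and summed over the transcripts of a gene), the order in muscle-like cells was SERCA, Ca-beta, RyR, Ca-alpha1D, Sh and slo. The mean TPM was 740.9 for SERCA, 41.4 for Ca-beta, 16.2 for RyR, 15.2 for Ca-alpha1D, 13.9 for Sh and 6.08 for slo. SERCA lay above Ca-beta on 15 of 15 plates. The next neighbours were in this order on 10 of 15 plates (Ca-beta over RyR), 10 (RyR over Ca-alpha1D), 7 (Ca-alpha1D over Sh) and 8 (Sh over slo), so their order is not clear beyond the spread over plates. RyR ranks lower per length than by CPM (214.1 CPM against 132.3 CPM for Ca-beta), its annotated transcripts being up to 16056 bases long. In neuron-like cells the mean TPM was 134.2 for Sh, 88.05 for Ca-alpha1D, 75.7 for slo, 22.7 for Ca-beta, 20.8 for SERCA and 2.02 for RyR. In hemocyte-like and fat body-like cells SERCA had a mean of 29.7 and 29.97 TPM.

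Many muscle-like cells carried several of the genes at once. At least 3 of the 6 were present in 40 of 58 muscle-like cells (68.97%), in 8 of 13 neuron-like, 4 of 25 midgut-like and 3 (0.421%) of the remaining cells. All 6 were found together in 3 cells, 2 muscle-like and 1 neuron-like. Over all cells, RyR and Ca-beta were found together in 24 cells where 3.66 would be found if they were independent, and Ca-alpha1D and Ca-beta in 26 where 3.47 would be. Within the muscle-like cluster these pairs came close to independence: RyR and Ca-beta shared 22 cells (21.6 under independence) and Ca-alpha1D and Ca-beta 18 (16.5). Ca-beta and Sh shared 7 muscle-like cells (9.67 under independence) and slo and Sh 3 (3.52). In neuron-like cells slo and Sh shared 8 of 13 (6.23 under independence). In the midgut-like cells, Ca-alpha1D, Ca-beta and slo were found in largely the same cells, each pair sharing 4 where at most 1.20 would be found under independence.

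Muscle-like cells also varied with the heart marker Hand, a transcription factor gene. RyR was present in 18 of 36 muscle-like cells with 10 reads of Hand (50%, 32.9 to 67.1) and in 20 of 22 without (90.9%, 70.8 to 98.9), and these intervals do not overlap. Ca-beta showed the opposite order, 25 of 36 (69.4%, 51.9 to 83.7) against 8 of 22 (36.4%, 17.2 to 59.3), with overlapping intervals. The means were 140.3 against 334.9 CPM for RyR and 161.2 against 84.9 CPM for Ca-beta. The 22 cells without Hand were read somewhat more deeply (median 558293 against 478286 reads). Hand entered the clustering and the division into these cells was made after values had been seen, so this is a description.

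The transcripts of SERCA differed between muscle-like cells and all others. SERCA (FBgn0263006) lies on the minus strand of chromosome 2R, 23925077 to 23935884 (BDGP6), with 9 annotated transcripts and a common start codon at 23932784. SERCA-RE and SERCA-RG start at the 2 farthest upstream first exons (23935680 and 23935884) and encode the same protein end as the common forms SERCA-RH, SERCA-RC and SERCA-RD, which start at 23933444 or 23933740; the stop codon of all 5 ends at 23929234. SERCA-RI has the start at 23933444 but ends its coding sequence at 23927726, with a coding sequence of fewer triplets, and runs to 23925077. The 3 forms RE, RG and RI were grouped after their values had been seen.

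In muscle-like cells, RE took 30.9%, RG 27.6% and RI 30.99% of the SERCA reads, together 89.4%. In all other cells the 3 together took 4.41%, and there RH, RC and RD carried most reads (36.1%, 35.9% and 21.8% in hemocyte-like cells, 27.9%, 20.9% and 39.3% in neuron-like cells). Over plates, the share of the 3 forms was 87.5% ± 8.19 (SD, n = 15, lowest 65.9%) in muscle-like cells and 4.28% ± 2.58 (SD, n = 15, highest 10.4%) in the others, so that the plates did not overlap. Per cell with 10 SERCA reads, the share ran from 4.69 through a median of 88.8 to 100% in 56 muscle-like cells, and from 0 through 0.482 to 100% in the others. It was over 50% in 51 of the 56 and in 12 of the others (2.78%). These 12 cells had a median of 22.4 SERCA reads, and none had 10 reads of Mhc. Mhc cells outside the muscle-like cluster kept the forms of the other cells: the 3 took 8.94% of the SERCA reads there, and over 50% in 0 of 27 cells.

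**Figure D4:**
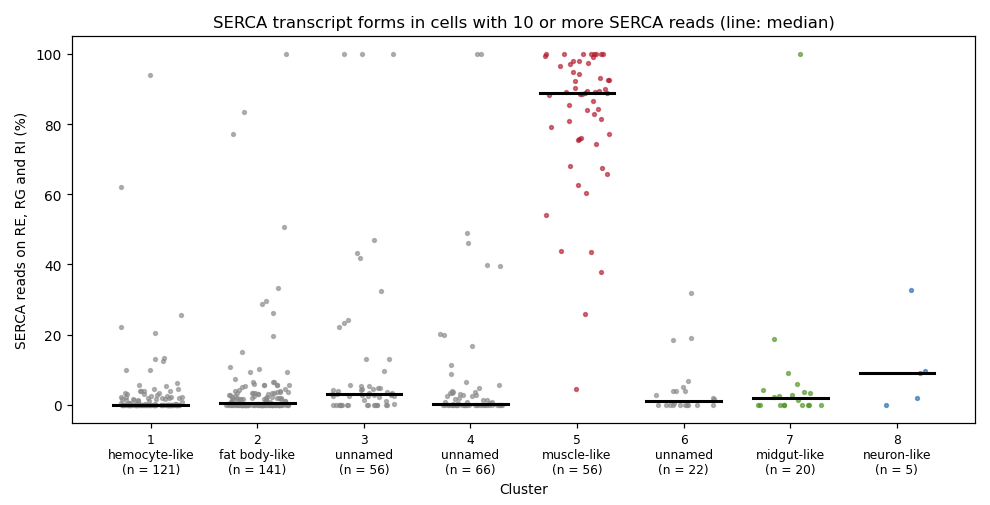
Share of the SERCA reads on transcripts RE, RG and RI (y axis, %) in each cell with 10 or more SERCA reads, by cluster (x axis, number of cells in brackets); each point is a cell and the line the median. The muscle-like median is 88.8%, and 51 of 56 muscle-like cells lie above 50%, compared with 12 cells (2.78%) of the other clusters.

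Separated by form, the level of RE, RG and RI was 1929 CPM on average in muscle-like cells and 7.61 CPM in all others, while the remaining forms had 252.03 and 107.8 CPM. The large difference in SERCA level was thus carried by the 3 forms. Within muscle-like cells, RE and RG together exceeded RI in 38 of 56 cells and RI exceeded them in 18, and 47 of 56 had 10 reads of both kinds. Transcript shares are estimates that kallisto makes from single-end reads of 75 bases, so forms that differ only in a short first exon are separated by few reads. The gene CG2812 lies on the opposite strand inside the last exon of RI, and whether counting used strand is not given in the sources used here; CG2812 had 0 reads in the 58 muscle-like cells, and 11 of the 12 cells with 10 reads of it also had 10 reads of SERCA.

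For slo, the start of transcription differed between cell types. slo (FBgn0003429) lies on the plus strand of chromosome 3R, 24662491 to 24711595, with 23 annotated transcripts, of which 8 start at 24662491 and 15 at 24668146. The upstream start carried 99.9% of the slo reads in neuron-like cells and most reads in 9 of 9 cells with the gene. In muscle-like cells the downstream start carried 77.4% of the reads and most reads in 8 of 12 cells. In the unnamed cells led by sna and esg it carried 79.4% of the reads, but with most reads in 6 of 12 cells, and in midgut-like cells 52.6%, with most reads in 2 of 6. The groups are small, and a single cell held 49.7% of the muscle-like slo reads.

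Sh (FBgn0003380, chromosome X, minus strand, 17924307 to 18063247, 15 annotated transcripts) differed in the end of its coding sequence. The transcripts with the earliest stop, at 17950608, among them Sh-RM, took 26.5% of the Sh reads in muscle-like cells and 7.76% in neuron-like cells, and most reads in 9 of 17 and in 0 of 9 cells with the gene. Transcripts that stop at 17940730, among them Sh-RC, took 42.7% and 60.4%. The farthest upstream start, at 18063247, took 65.2% of the reads in muscle-like and 64.9% in neuron-like cells, so that these shares were close. In the unnamed cells led by sna and esg, Sh-RB took 90.1% of the Sh reads, with 1 cell holding 62.5% of them. The gene CG12672 lies on the same strand within Sh, and had 10 reads in 5 cells, of which 4 also had 10 reads of Sh.

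Ca-beta (chromosome 2L, minus strand, 11156118 to 11203544, 9 annotated transcripts) was read mostly from the start at 11167896. That start carried 79.5% of the reads in muscle-like cells, most reads in 24 of 33 cells, and 37.4% in neuron-like cells, most reads in 3 of 6. Its stop codons at 11159273, 11161268 and 11161791 took 62.8%, 21.2% and 16.01% of the muscle-like reads, so that forms with different coding ends occurred together. The gene Boh2 overlaps Ca-beta on the other strand, and 1 cell had 10 reads of both.

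**Figure D5:**
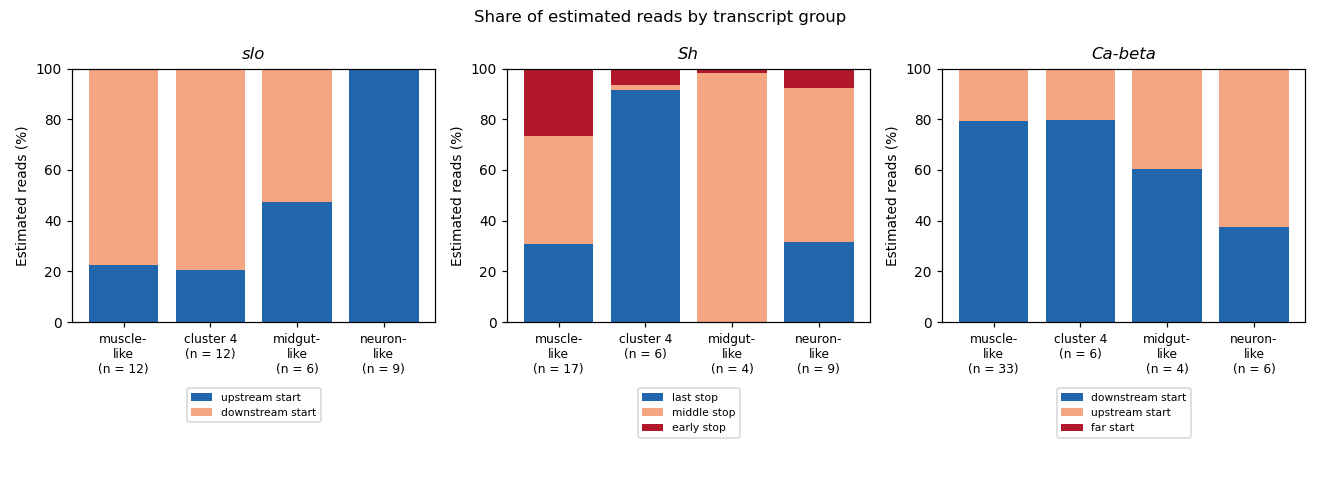
Share of the estimated reads (y axis, %) of slo by transcription start, of Sh by stop codon and of Ca-beta by transcription start, in 4 clusters (x axis; number of cells with 10 reads of the gene in brackets). For slo the upstream start takes 99.9% of the reads in neuron-like and 22.6% in muscle-like cells; the early stop of Sh takes 26.5% in muscle-like and 7.76% in neuron-like cells.

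RyR (FBgn0011286, chromosome 2R, plus strand, 8860364 to 8888097) has 10 annotated transcripts that share their start codon and stop codon. RyR-RE was the leading form, with 30.7% of the reads in muscle-like cells, and RyR-RI, the only form with the start at 8862773, took 10.6% there and 0.0215% in neuron-like cells. Ca-alpha1D (FBgn0001991, chromosome 2L, plus strand, 16165831 to 16190540) has 5 annotated transcripts, which held 76.3% of its reads; 8 further transcripts of the cell files, not in the annotation used, made up the remaining 23.7%, mainly outside muscle-like cells. Of the reads on annotated transcripts in muscle-like cells, 38.96% were on Ca-alpha1D-RF and 31.4% on Ca-alpha1D-RH, whose coding sequences have the same length, and 0.234% on Ca-alpha1D-RG, the form with the earlier stop at 16187488.

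Genes with the most similar pattern over all cells that passed were ranked by Spearman's rho of log2(CPM + 1), among 7522 genes with 10 reads in at least 20 cells. For RyR they were Mlp84B, a muscle LIM protein gene (rho = 0.60), CG14687 (0.60) and CG45078 (0.57). For Ca-beta they were CG42450 (0.60), Pka-C3 (0.60) and Shal (0.59), and for Ca-alpha1D Shal (0.49), CG43102 (0.47) and mspo (0.47). Shal encodes a further A-type potassium channel, and it was present in 36 of 58 muscle-like cells, compared with 17 for Sh. For Sh the closest were the troponin C gene TpnC73F (0.40), the tropomyosin gene Tm2 (0.37) and the troponin T gene up (0.35). For slo they were the neuronal adhesion gene Nrx-1 (0.39), CG43729 (0.35) and the ankyrin gene Ank2 (0.33), and for SERCA CG3625 (0.37), Mlp84B (0.36) and CG7414 (0.35). Among the members, the closest pair was RyR and Ca-beta (0.50) and the least close SERCA and slo (0.10). These values describe cells that share plates and depth.

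Most other genes of excitation and calcium handling were also higher in Mhc cells, though many far less so. Of 77 genes in 6 lists, 71 had a row, and of these 43 had a log2 ratio of at least 1 between Mhc cells and other cells, 2 of at most -1 and 26 neither (median 1.58, beside 0.08 for all genes). The background shares of 19.3% and 10.6% apply to these counts too. Among 14 voltage-gated channel genes, 8 were higher and 1 lower. Shal had means of 310.7 and 3.11 CPM (log2 ratio 6.24) and SK, a calcium-activated potassium channel gene, 133.1 and 12.5 CPM (3.31), with SK in 44 of 58 muscle-like cells. Ca-alpha1T, a T-type calcium channel gene, was present in 9 of 58 muscle-like cells and cac, the gene of the presynaptic calcium channel, in 4. The sodium channel gene para was found in 0 of 58, which allows a share of up to 5.17%, and in 9 of 13 neuron-like cells, and NaCP60E was lower (-1.18).

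Among 10 channel subunit and regulator genes, 5 were higher and none lower. The potassium channel gene sand had means of 114.1 and 1.45 CPM (5.55) and was present in 25 of 58 muscle-like cells. Hk, the beta subunit of Sh channels, had means of 8.67 and 16.7 CPM (-0.87) and was present in 2 of 58 muscle-like and 8 of 13 neuron-like cells. Slob, a binding partner of slo, was present in 4 of 58 and 4 of 13.

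In the store, 4 of 10 genes were higher and 1 lower. SclA and SclB, which encode the sarcolamban micropeptides that restrain SERCA, had log2 ratios of 4.98 and 6.21 and were present in 21 and 26 of 58 muscle-like cells. jp, the junctophilin gene, whose protein ties the store to the plasma membrane, was present in 43 of 58 and in 7 cells elsewhere (6.02). The genes of general store proteins did not reach the limit: Calr had means of 461.3 and 570.5 CPM (-0.31), Stim 63.1 and 70.4 CPM (-0.16), and Itp-r83A, the IP3 receptor gene, 16.1 and 10.2 CPM (0.61). olf186-F, the store-operated channel gene, was lower (-1.28).

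Of 7 genes of calcium extrusion and uptake, 3 were higher. The plasma membrane pump gene PMCA was present in 48 of 58 muscle-like cells with means of 280.3 and 92.8 CPM in Mhc cells and others (1.58). MCU, the mitochondrial uniporter gene, was present in 16 (3.59), and the sodium-calcium exchanger gene Calx in 2 of 58 (0.96). Among 16 sensor and effector genes, 11 were higher and none lower, led by troponin C genes and Strn-Mlck, a myosin light chain kinase gene, which was present in 57 of 58 muscle-like cells (5.55). Cam, the calmodulin gene, did not reach the limit (0.46). Of 14 genes of the synapse and the T-tubule, 12 were higher and none lower. The glutamate receptor subunit genes GluRIIA, GluRIIB, GluRIIC, GluRIID and GluRIIE were present in 21, 21, 19, 29 and 11 muscle-like cells, and GluRIIC in none of the 700 cells without 10 reads of Mhc, which allows a share of up to 0.429%.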

How the data were processed

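Single cells were sorted into plates, sequenced as 75-base single-end reads and pseudo-aligned by the authors to the BDGP6 cDNA with kallisto 0.43.0 (R 3.5.1 is also named in the submitters' processing notes; the Ensembl release is not given in the sources used here). The authors deposited gene-level estimated counts, rounded to whole numbers, in 1 table covering all cells, and a file per cell with the estimated count and the TPM of every transcript. Reads carry no molecular identifiers. No doublet caller was run, no columns of 2 cells were identical, and pseudobulk tests were not possible with 1 group.

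The 6 genes, the gene lists and the markers were chosen with earlier results of these data known. Cells with at least 500 genes at 10 reads were kept, as in the study, and a gene was called present at 10 reads. CPM used all reads of a cell. Clusters came from 1000 variable genes, 10 principal components and Ward linkage cut at 8 clusters, leaving out 77 genes (the 6 genes and the 71 listed genes with a row). A name needed 3 markers at a log2 ratio of at least 1 in at least 25% of the cells. Ca-beta was matched by symbol, because the annotation gives it another identifier (FBgn0287724) than the table (FBgn0259822). The summed transcripts lay within 0.51 reads of the table for every gene and cell, for Ca-alpha1D only with 8 transcripts that the annotation does not hold, which were found by that match. Transcripts were grouped by start (within 50 bases) and by the ends of the coding sequence in the BDGP6 annotation. All 6 genes are named, as are genes of the lists and, for each of the 6, the 3 genes with the highest rho of at least 0.3. Thinning drew 256773 reads per cell, the 10th percentile of depth, and left out 81 cells. The listed genes CG12455, Ork1, Irk2, Irk3, TMCO1 and Scp2 had no row. No sequence is printed. The ratio and the thinning were tested on simulated data. Python 3.11.15, numpy 2.4.6, scipy 1.17.1 and pandas 2.3.3 were used. Alternatives covered the read limit, thinning, the cell filter, plates, the Mhc limit, library size, TPM, the added constant and the clustering; those that leave out a cluster, and thinned ratios, were chosen after seeing the data.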

Additional observations from a re-analysis of the deposited data

Results flagged for a closer look

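The 28 deposited cells that did not meet the filter on genes per cell entered no comparison. SERCA was detected in these unused cells, with 10 reads in 6 of them (21.4%, 8.30 to 40.95). This share was lower than the 60.2% (56.7 to 63.6) of the cells that passed, and the intervals did not overlap. Of the other genes, Ca-alpha1D and Ca-beta were each present in 2, RyR and Sh in 1 and slo in 0. The count of 0 for slo allows a share of up to 10.7% (3 counts of 28). These cells had a median of 393572 reads.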

How the results depend on the processing

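No paired analysis was possible because all cells belong to 1 group. No log2 ratio changed sign under any alternative. Leaving out the muscle-like cluster lowered the log2 ratio of SERCA from 3.40 to 0.25 and that of RyR from 5.05 to 1.95; the other 52 values of the ratios under alternatives, and 90 with a plate left out, stayed within 1 SD over plates. The SDs of slo and Sh are larger than their ratios, so this limit is wide for them. The share of cells present moved with the read limit. At 1 read it was 69.8% for SERCA, 9.02% for Ca-alpha1D, 9.27% for slo and 10.3% for Sh. At 50 reads it was 46.6% for SERCA, 4.45% for RyR, 4.08% for Ca-alpha1D, 4.33% for Ca-beta, 3.09% for slo and 3.34% for Sh. In thinned cells it was 55.1% for SERCA, 4.81% for Ca-beta, 3.43% for slo and 3.85% for Sh. Using all deposited cells or the summed transcripts left every share within its interval.

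The count of genes with their highest share in the muscle-like cluster was 3. With 10 clusters it was 1, because 2 neuron-like cells then formed a cluster of their own that led for SERCA, RyR, Ca-alpha1D and Sh; with 6 clusters and with thinned cells it was 4, with 1 read 2, and without ribosomal RNA in the clustering 3. The muscle-like cluster held the same 58 cells with 6 and with 10 clusters.

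Leaving out each plate in turn gave shares of 59.4 to 60.9% for SERCA, 6.60 to 7.28% for RyR, 6.02 to 7.02% for Ca-alpha1D, 5.85 to 6.68% for Ca-beta, 5.08 to 5.79% for slo and 5.01 to 5.80% for Sh. The log2 ratios ranged from 3.26 to 3.93 for SERCA, 4.87 to 6.25 for RyR, 3.13 to 4.23 for Ca-alpha1D, 4.07 to 4.52 for Ca-beta, 1.23 to 1.83 for slo and 1.71 to 2.59 for Sh. The highest value for RyR, 6.25, was without plate 17. The 13 neuron-like cells limit every statement on them.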
